A study of Mus musculus with 13 samples.

Results

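The immediate early genes Fos, Fosb, Jun, Junb, Jund, Egr1, Egr2, Atf3, Ier2 and Ier3 were taken by symbol from a microarray profile of CD31-sorted mouse cells. They are 10 of 18193 genes with a probe set, and each of the 10 was among the 15370 genes tested. They were covered by 13 probe sets, and where a gene had several, the main one was that of highest mean value on the 13 arrays. The cells came from tumors of SKOV3ip1, a human ovarian cancer line grown in mice. Per the study, 4 resistant arrays came from tumors that grew again under B20, an antibody that blocks VEGF-A, a factor that vessels need to grow. A further 4 sensitive arrays came from tumors that still responded to B20, and 5 arrays are labelled control endothelial cells. The study had mice given control IgG, an antibody without that target, and also names cells collected before treatment. It does not state which of these gave the control arrays. Per the study, SKOV3ip1 tumors of its other experiments grew in the peritoneal cavity of female athymic nude mice (NCr-nu), which lack most T cells, and the strain and age of the mice behind these arrays are not stated separately. The labels call the arrays biological replicates but do not tie an array to a named animal. The p-values therefore speak of the spread among the arrays, which may be in part technical. Tumors were taken at different times of treatment, so time and group cannot be told apart. The same protocol text stands with all 13 arrays, although it names only the B20 groups: an enzyme mix of collagenase A, elastase and DNase 1 acted on the tumors for 90 min at 37 °C, platelets and red cells were removed, and cells were sorted on CD31.

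Immediate early genes are transcribed within minutes of a signal, without new protein synthesis. Growth factors, stress and mechanical disturbance reach them through MAP kinases, which act on the factors SRF, ELK and CREB already bound at their promoters. Most of the products are transcription factors. FOS and JUN family proteins pair to form AP-1, ATF3 is a stress-induced partner of the same bZIP class, and EGR proteins are zinc finger factors. The mRNAs are short lived, and warm enzymatic digestion of tissue is known to induce many of these genes. Every array came from digested tissue, so there was no undigested sample against which digestion could be measured, and its part in the levels was not tested.

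Promoter sequences of the members are shown for the short motifs through which such signals are known to act. RefSeq windows on GRCm38.p6, from 250 bases before to 50 after a transcription start, were found for 8 of 10 members, in 12 windows, and Egr1 and Ier2 had no window in the table. Motifs were searched on both strands, and each is a match of letters, not a measured binding site. Sequence outside the windows was not searched, so a member without a match may still have the motif farther away. A member was counted if any of its windows matched, whereas the percentages count single windows, so these are unlike measures. The CRE half-site TGACGT, the core of the sequence bound by CREB, stood in windows of 3 of 8 members (Fos, Egr2 and Atf3), and in 7.51% of 32851 mouse promoter windows of that length. The sequence TGACATCA, known from the human JUN promoter as a site for JUN and ATF2, stood in 1 of 8 members (Jun) and in 3.62% of all windows. The serum response element, or CArG box, bound by SRF, stood in 1 of 8 members (Egr2) and in 1.63% of all windows. The TATA box sequence TATAAA stood in windows of 2 of 8 members (Fos and Junb) and in 13.6% of all windows. In Fos it lay 33 to 28 bases before the start, while in Junb it began at the start itself. The full CRE TGACGTCA, which contains the half-site, the AP-1 site TGANTCA and the EGR site GCGTGGGCG stood in 0 of 8 members' windows, against 1.79%, 7.81% and 0.612% of all windows. The 4 stretches below hold 100 bases each, 80 before the start and 20 from the start on. Capitals mark the CRE half-site and TATA box in Fos, the TGACATCA site in Jun, the half-site on the other strand (ACGTCA) in Atf3, and the CArG box followed by the half-site on the other strand in Egr2. The stretches lie at chr12:85473810-85473909 on the plus strand (Fos), chr4:95052203-95052302 on the minus strand (Jun), chr1:191183314-191183413 on the minus strand (Atf3) and chr10:67537789-67537888 on the plus strand (Egr2).
Fos: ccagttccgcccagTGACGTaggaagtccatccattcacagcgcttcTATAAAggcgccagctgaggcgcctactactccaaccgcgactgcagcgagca
Jun: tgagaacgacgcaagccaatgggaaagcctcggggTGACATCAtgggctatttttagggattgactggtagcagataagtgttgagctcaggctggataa
Atf3: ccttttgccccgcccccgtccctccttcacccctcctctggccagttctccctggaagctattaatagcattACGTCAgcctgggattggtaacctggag
Egr2: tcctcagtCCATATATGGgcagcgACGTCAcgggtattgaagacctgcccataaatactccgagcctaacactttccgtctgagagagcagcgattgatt

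Several arrays stood apart from their group in markers of other cells, and values without them are given where they moved a result. Values are quantile normalized log2 intensities with a floor of 2.01. The median of 15 endothelial genes was 3.46 to 4.27 on resistant arrays and 2.93 to 3.67 on sensitive arrays. On control arrays 1 to 3 it was 3.20 to 3.81, against 7.07 and 7.38 on control arrays 4 and 5. Pecam1, which encodes CD31, had a median of 2.83 over the arrays and reached 6.56 on control array 5, so most arrays carried little signal for the marker of the sort. The median of 15 macrophage and monocyte genes was 8.29 to 10.2 on resistant arrays, 3.82, 4.19 and 4.60 on sensitive arrays 1, 2 and 3, 9.84 on sensitive array 4 and 7.99 to 9.48 on control arrays. The median of 8 mesothelial genes was 3.12, 6.87, 5.49 and 4.45 on resistant arrays 1 to 4, 7.19 and 7.37 on sensitive arrays 1 and 2, 2.60 and 2.58 on sensitive arrays 3 and 4, and 2.82 to 4.96 on control arrays, so resistant array 2 came close to sensitive arrays 1 and 2. The median of 6 B cell genes was 7.64 on sensitive array 3 and at most 5.001 on the other arrays. The arrays measured bulk RNA, in which fewer cells of a type and less RNA per cell cannot be told apart.

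All 10 genes gave signal above the floor on each of the 13 arrays, and no gene kept any pair of groups apart. Fos encodes the AP-1 subunit that pairs with JUN proteins. Fos had 10.76, 12.39, 11.58 and 11.61 on resistant arrays 1 to 4, 12.31, 12.76, 9.98 and 11.14 on sensitive arrays 1 to 4, and 10.15, 11.46, 11.88, 9.18 and 9.22 on control arrays 1 to 5. The lowest values were those of control arrays 4 and 5, and the highest that of sensitive array 2, so the groups overlapped. Fosb, a FOS family subunit, had 9.07, 10.44, 9.83 and 8.17 on resistant arrays, 10.53, 10.18, 5.59 and 8.80 on sensitive arrays, and 9.67, 9.62, 10.20, 7.20 and 7.63 on control arrays. Its lowest array by a wide margin was sensitive array 3, and control arrays 4 and 5 were again low in their group.

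The JUN family did not move as 1 group. Jun, whose product can pair with itself or with FOS, had 8.51, 9.65, 10.35 and 7.45 on resistant arrays, 11.24, 9.90, 7.10 and 6.25 on sensitive arrays, and 7.94, 9.62, 9.85, 7.58 and 7.80 on control arrays. The sensitive group alone held both the highest and the lowest array of the series, a range of 4.99. A second Jun probe set also ranged widely, with group means of 7.74 ± 0.80 on resistant arrays, 7.57 ± 1.99 on sensitive arrays and 6.87 ± 1.16 on control arrays (SD, n = 4, 4 and 5). Jund, the subunit that most cells carry at rest, had 9.66, 9.77, 10.35 and 9.50 on resistant arrays, 10.84, 10.69, 9.37 and 8.56 on sensitive arrays, and 9.31, 9.68, 10.23, 8.27 and 8.41 on control arrays. Its high and low arrays were mostly those of Jun, over a narrower range of 2.57. The second Jund probe set lay near the floor, at 2.01 to 2.78. Junb, often a brake on Jun, had 9.29, 6.70, 8.77 and 6.46 on resistant arrays, 8.59, 6.41, 7.15 and 7.12 on sensitive arrays, and 8.03, 7.82, 6.72, 7.15 and 7.17 on control arrays. Junb did not follow the other AP-1 genes: sensitive array 2, the highest array for Fos, was the lowest for Junb.

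Atf3, a bZIP repressor induced by stress, had 8.82, 9.65, 10.76 and 9.02 on resistant arrays, 10.89, 10.33, 6.38 and 7.15 on sensitive arrays, and 8.89, 9.77, 9.86, 7.70 and 7.72 on control arrays. Sensitive arrays 1 and 2 were high and sensitive arrays 3 and 4 low. The 5 control arrays lay between them, as did the resistant arrays except resistant array 3, which lay above sensitive array 2. In the deposited values, before quantile normalization, sensitive array 2 had 9.60. There control arrays 2 and 3 lay above it, at 9.999 and 9.79, as did resistant array 2, at 9.69.

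The EGR genes differed from each other. Egr1, the zinc finger factor used as a standard readout of MAP kinase signals, had 10.75, 11.90, 11.90 and 10.89 on resistant arrays, 12.12, 11.88, 11.72 and 9.56 on sensitive arrays, and 10.27, 11.62, 11.48, 8.14 and 9.16 on control arrays. Egr1 was lowest on control arrays 4 and 5, then on sensitive array 4, and the other 10 arrays lay at 10.27 to 12.12. Egr2, a relative with roles in myelin and immune cells, had 8.44, 8.72, 8.39 and 7.96 on resistant arrays, 6.78, 8.38, 8.43 and 7.61 on sensitive arrays, and 8.79, 8.20, 7.73, 7.01 and 7.37 on control arrays. Its highest array was control array 1 and its lowest sensitive array 1, which was the highest array for Jun, Jund, Atf3, Egr1, Ier2 and Fosb. In the deposited values, before quantile normalization, resistant array 3 was highest for Atf3 (10.88, against 10.61 on sensitive array 1) and Ier2 (9.275, against 8.482). For Fosb it was resistant array 2 (10.46, against 10.14 on sensitive array 1). The second Egr2 probe set had group means of 7.73 ± 0.29 on resistant arrays, 7.17 ± 0.68 on sensitive arrays and 7.46 ± 0.64 on control arrays (SD, n = 4, 4 and 5), and it also did not separate the groups.

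Ier2, a nuclear protein named for its immediate early induction, had 8.59, 7.99, 9.04 and 7.97 on resistant arrays, 9.23, 8.48, 8.43 and 7.67 on sensitive arrays, and 7.59, 8.68, 8.54, 6.68 and 7.14 on control arrays. Its low arrays were control arrays 4 and 5, as for Egr1. Ier3, an early gene with a role in cell survival and a target of NF-kB, had 10.24, 10.39, 10.40 and 10.40 on resistant arrays, 10.24, 9.96, 7.30 and 11.08 on sensitive arrays, and 9.93, 10.66, 10.57, 10.38 and 10.48 on control arrays. Apart from sensitive array 3, with its high B cell genes, Ier3 kept to between 9.93 and 11.08, and control arrays 4 and 5 were not low for it.

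**Figure D1:**
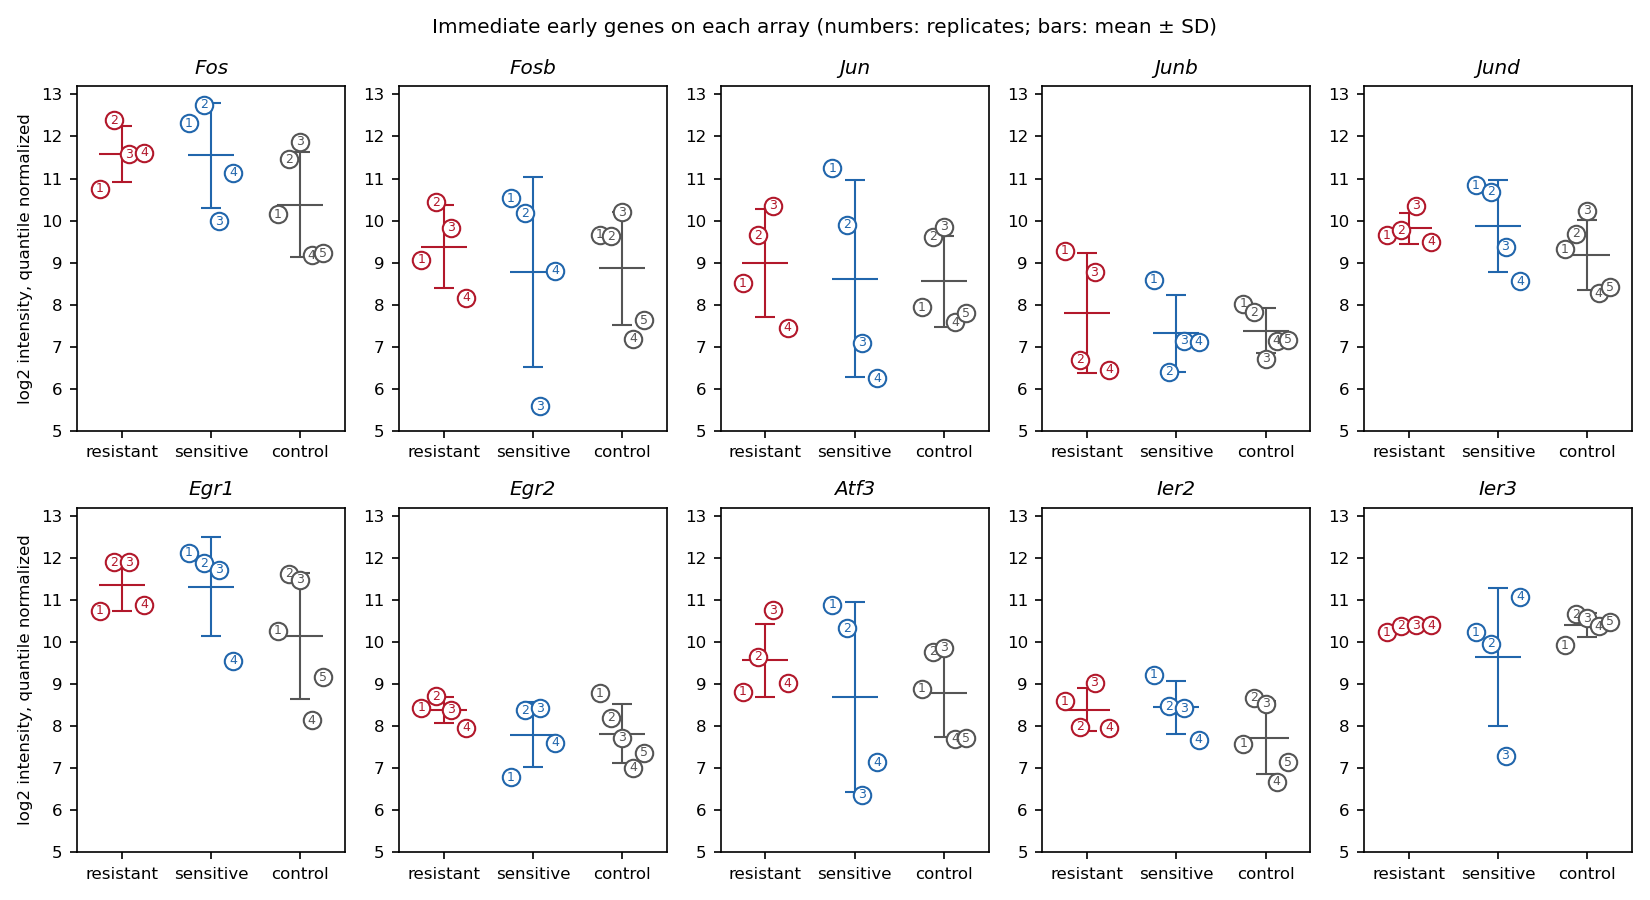
Log2 intensity (vertical axis, quantile normalized) of the 10 genes on each of 13 arrays by group (horizontal axis), where each circle is an array with its replicate number and bars give mean ± SD. No gene separates any pair of groups, and control arrays 4 and 5 lie at the low end for Fos, Jund, Egr1 and Ier2.

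The within-group spread of the members was wide for this table. The residual SD of the fit was 1.61 for Jun, 1.59 for Fosb, 1.48 for Atf3, 1.20 for Egr1 and 1.11 for Fos, against a median of 0.51 over all 15370 genes. Jun varied more within groups than 98.1% of the genes tested, Fosb more than 98.0%, Atf3 more than 97.3%, Egr1 more than 94.0% and Fos more than 92.2%. Junb (0.99), Ier3 (0.91), Jund (0.82), Ier2 (0.71) and Egr2 (0.64) varied less than these but also above the median gene.

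Most of the members moved together from array to array. Over the 13 arrays, Pearson's r was 0.917 between Jun and Atf3 (Spearman's rho 0.929), 0.896 between Egr1 and Ier2 (rho 0.781), 0.893 between Jund and Egr1 (rho 0.891) and 0.866 between Fosb and Atf3 (rho 0.846). These are descriptions over arrays that share group, tumor and cell content, and no p is given. Fos, Fosb, Jun, Jund, Atf3, Egr1 and Ier2 had r of 0.756 to 0.891 with the mean of the other 9 members. Junb (0.223), Egr2 (0.149) and Ier3 (0.109) did not follow that mean. The pair of Jund and Egr1 kept an r of 0.814 without control arrays 4 and 5, its most distant arrays, and that of Jun and Atf3 an r of 0.891 without sensitive arrays 1 and 4. The r of 0.597 between Fosb and Ier3 rested on sensitive array 3 and control array 4, without which it was -0.314. Within groups, after each group's mean was taken off, r was 0.926 for Jun and Atf3 and 0.871 for Jund and Egr1.

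**Figure D2:**
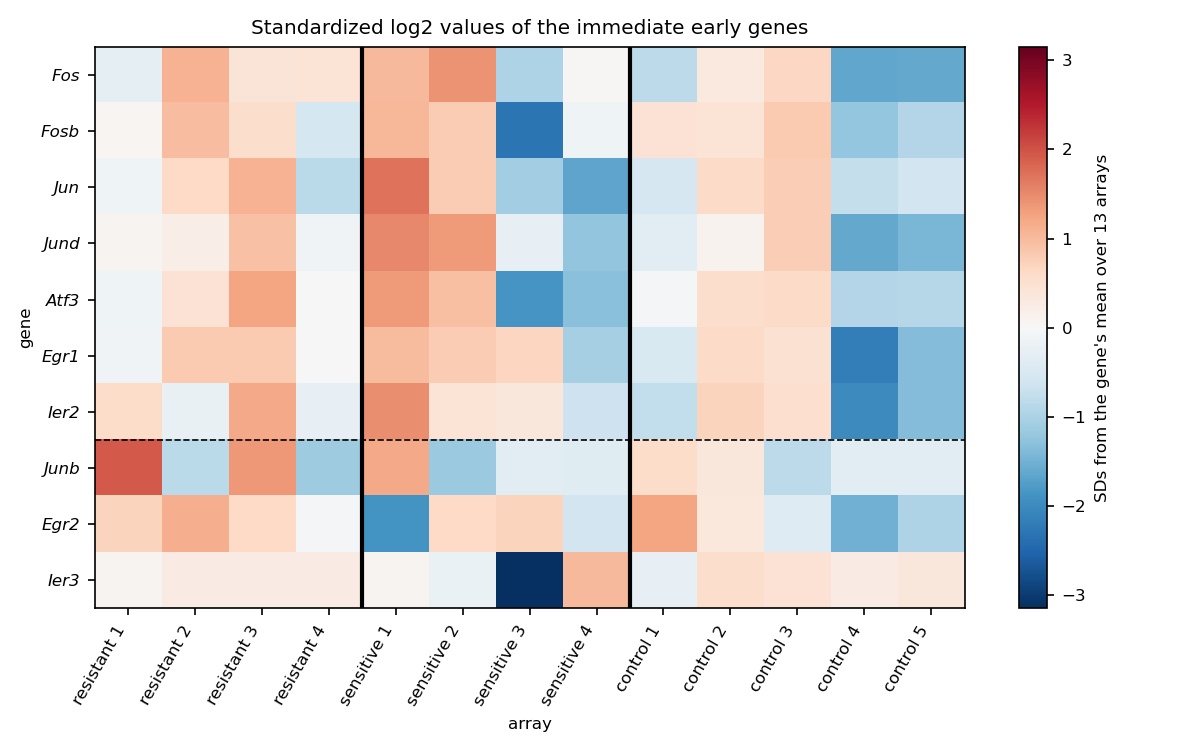
Standardized log2 values (color, in SDs from each gene's mean over 13 arrays) of the 10 genes (rows) by array (columns), with resistant, sensitive and control arrays set apart by solid lines. The 7 genes above the dashed line are low on control arrays 4 and 5, while Junb, Egr2 and Ier3, placed below it after their values were seen, follow other orders.

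**Figure D3:**
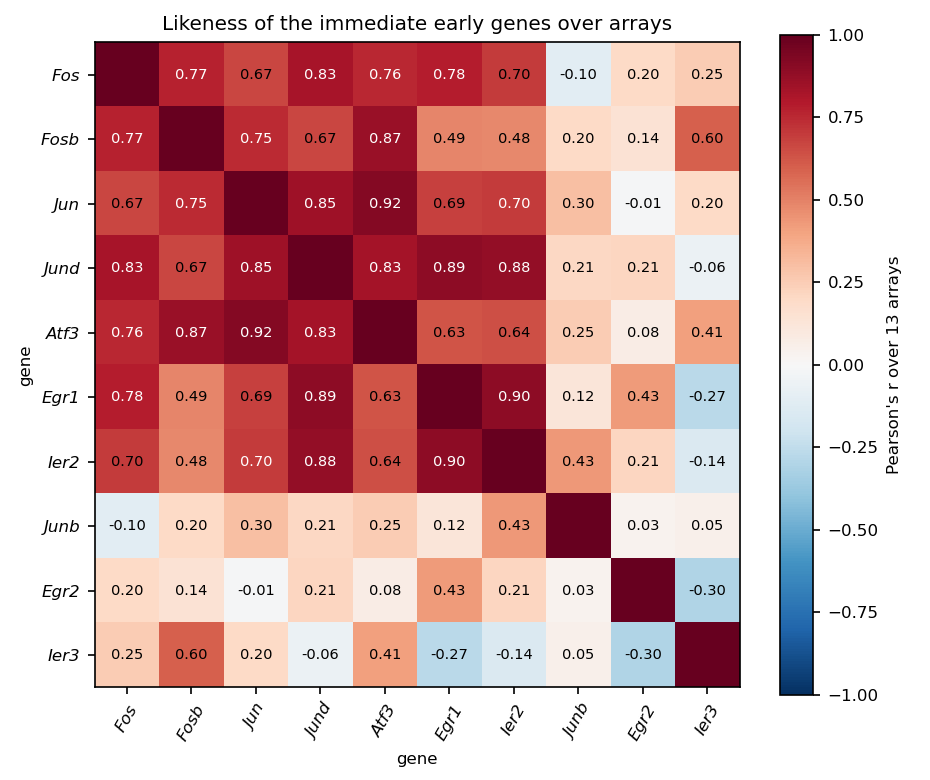
Pearson's r over 13 arrays between each pair of the 10 genes, which stand on both axes, with color and number giving r. Jun and Atf3 have the highest value, and no pair with Junb, Egr2 or Ier3 exceeds the 0.597 of Fosb and Ier3.

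Outside the members, the genes whose values were most like the mean of the members' standardized values, among 15360 genes ranked over 13 arrays, were Bhlhe40 (r 0.909, rho 0.797), Chka (r 0.901, rho 0.918), Trib1 (r 0.900, rho 0.841), Prr15 (r 0.882, rho 0.896) and H6pd (r 0.880, rho 0.819). Bhlhe40 encodes a helix-loop-helix repressor linked to the circadian clock, Chka a choline kinase, Trib1 a pseudokinase and H6pd an enzyme of the pentose phosphate pathway in the endoplasmic reticulum. Without control arrays 4 and 5, r was 0.832, 0.937, 0.825, 0.899 and 0.890 in the same order.

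The comparison of resistant with control arrays asks whether tumors that escaped B20 differ from the control tumors. Egr1 and Fos had the largest differences of the members, and the range of each group reached into the other. Egr1 averaged 11.36 ± 0.63 on resistant arrays and 10.13 ± 1.50 on control arrays (SD, n = 4 and 5), a difference of 1.22 (SE 0.70, 95% interval -0.28 to 2.73) or 2.34-fold, with an exact permutation p of 0.198. Fos averaged 11.59 ± 0.66 on resistant arrays and 10.38 ± 1.25 on control arrays, a difference of 1.21 (SE 0.65, interval -0.19 to 2.60) or 2.31-fold, with an exact permutation p of 0.143. Neither passed the test across genes, with adjusted p of 1.00 by limma for both. The other log2 differences were 0.77 for Atf3, 0.67 for Ier2, 0.64 for Jund, 0.56 for Egr2, 0.52 for Fosb, 0.43 for both Jun and Junb, and -0.04 for Ier3. On their second probe sets Jun differed by 0.87 (SE 0.81) and Egr2 by 0.27 (SE 0.39).

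By limma 0 of 10 members were called between resistant and control arrays, as were 0% of the 15370 genes, and 0 members had an unadjusted p under 0.05, against 386 genes. The methods' t-test also called 0 genes after adjustment, with 1041 genes and 0 members under 0.05 before it. The 4 against 5 arrays could have reached an exact p of 0.00794. Groups did not overlap for 0 of 10 members, against 2.71% of all genes. The median log2 difference of the members was 0.60, with 9 of 10 above 0, beside a median of 0.03 and 54.3% above 0 over all genes. Since the members follow each other from array to array, these 9 are not 9 separate results. The median was 0.10 without control arrays 4 and 5, which were the arrays high in endothelial genes, and Egr1 and Fos then differed by 0.23 and 0.42. Of the cell markers, 1 of 15 endothelial genes (median -0.88), 9 of 15 macrophage genes (0.09) and 8 of 8 mesothelial genes (1.28) were above 0. Without those 2 control arrays they were 13 of 15 (0.57), 10 of 15 (0.13) and 7 of 8 (0.73). How far these cells entered the members' values was not tested.

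The comparison of resistant with sensitive arrays sets tumors that no longer responded to B20 against tumors that did. Fos, Egr1, Jund and Ier2 had close group means, and the remaining members had higher means on resistant arrays without passing the test. Fos averaged 11.59 ± 0.66 on resistant arrays and 11.55 ± 1.25 on sensitive arrays (SD, n = 4 each), a difference of 0.04 (SE 0.69, interval -1.44 to 1.51). The largest difference was that of Atf3, with 9.56 ± 0.87 on resistant arrays and 8.69 ± 2.26 on sensitive arrays, 0.88 (SE 0.91, interval -1.07 to 2.83) or 1.84-fold, with an exact permutation p of 0.486. The intervals therefore do not show that the levels were alike. The remaining differences ran from -0.05 for Ier2 to 0.72 for Ier3, whose sensitive mean included 7.30 on sensitive array 3.

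Between resistant and sensitive arrays 0 of 10 members and 0% of all genes were called by limma, and 0 members against 1087 genes had an unadjusted p under 0.05. The methods' t-test called 0 genes after adjustment, with 528 genes and 0 members under 0.05 before it. The 4 against 4 arrays could have reached an exact p of 0.0286. Groups did not overlap for 0 of 10 members, against 1.87% of all genes. The median of the members was 0.42, with 8 of 10 above 0, beside -0.07 and 42.1% for all genes. The sensitive arrays that were high and low in these genes pulled this median in opposite directions: it was 0.94 without sensitive arrays 1 and 2, high in mesothelial genes, and -0.07 without sensitive array 3. Markers of other cells also differed: 14 of 15 macrophage genes had an unadjusted p under 0.05 by limma and 0 were called, with a median difference of 3.03. That macrophage median was 1.73 without sensitive arrays 1 and 2 and 2.73 without sensitive array 3. The part of cell content in the members' values was not tested.

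The comparison of sensitive with control arrays asks what B20 goes with while tumors respond. Egr1 and Fos again had the largest differences, against the same control arrays as above. Egr1 averaged 11.32 ± 1.19 on sensitive arrays and 10.13 ± 1.50 on control arrays, 1.19 higher (SE 0.70, interval -0.32 to 2.69), and Fos averaged 11.55 ± 1.25 on sensitive arrays and 10.38 ± 1.25 on control arrays, 1.17 higher (SE 0.65, interval -0.23 to 2.57). The exact permutation p were 0.230 and 0.198, and the adjusted p by limma 0.486 and 0.470. Ier2 differed by 0.73 (SE 0.45) and Jund by 0.68 (SE 0.50), Ier3 by -0.76 (SE 0.55), and Fosb, Jun, Junb, Egr2 and Atf3 lay between -0.10 and 0.06. These are the main probe sets. The second probe set of Jun differed by 0.70 (SE 0.81) and that of Egr2 by -0.29 (SE 0.39). Without control arrays 4 and 5 Egr1 differed by 0.20 and Fos by 0.38.

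Between sensitive and control arrays 0 of 10 members and 0% of all genes were called by limma, and 0 members against 1828 genes had an unadjusted p under 0.05. The methods' t-test called 0 genes after adjustment, with 1370 genes and 0 members under 0.05 before it. Groups did not overlap for 0 of 10 members, against 3.03% of all genes. The median of the members was 0.02, with 5 of 10 above 0, beside 0.09 and 58.4% for all genes. It was -0.32 without control arrays 4 and 5, -0.23 without sensitive arrays 1 and 2 and 0.70 without sensitive array 3. Markers of other cells differed more: 15 of 15 macrophage genes were below 0 (median -2.94), 14 of them with an unadjusted p under 0.05 by limma. Also below 0 were 8 of 9 genes of large peritoneal macrophages (median -1.60) and 14 of 15 endothelial genes (median -1.37). Above 0 were 8 of 8 mesothelial genes (median 1.23). Without control arrays 4 and 5, 11 of 15 endothelial genes were above 0 (median 0.15). Without sensitive arrays 1 and 2, 1 of 8 mesothelial genes was above 0 (median -0.81). In both cases 0 of 15 macrophage genes were above 0. Of these lists 0 genes were called, and their part in the members' values was not tested. A measure of RNA quality also differed between arrays. The gap between the 3′ and 5′ probe sets of Actb and Gapdh, which grows as RNA is degraded, was 2.56 to 3.82 on resistant arrays, 2.23 to 5.95 on sensitive arrays and 2.38 to 3.02 on control arrays, with the 5.95 on sensitive array 4. With that gap as a covariate the median was 0.85 and Egr1 differed by 1.90, with an adjusted p of 0.130 by limma, the lowest of any member under any setting run.

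**Figure D4:**
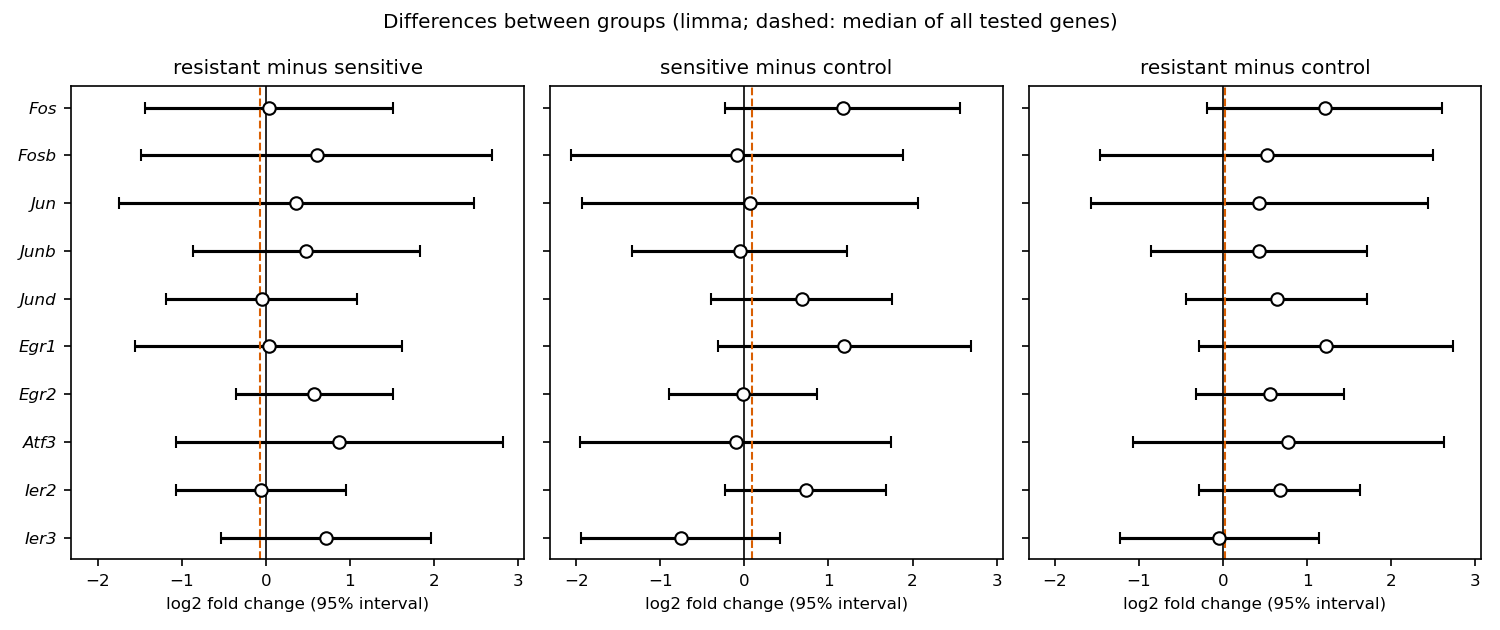
Log2 fold change (horizontal axis) of the 10 genes with 95% intervals from limma in each comparison, where the dashed line is the median of all tested genes. Every interval includes 0, and the points of Egr1 and Fos lie farthest right in both comparisons with control arrays.

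**Figure D5:**
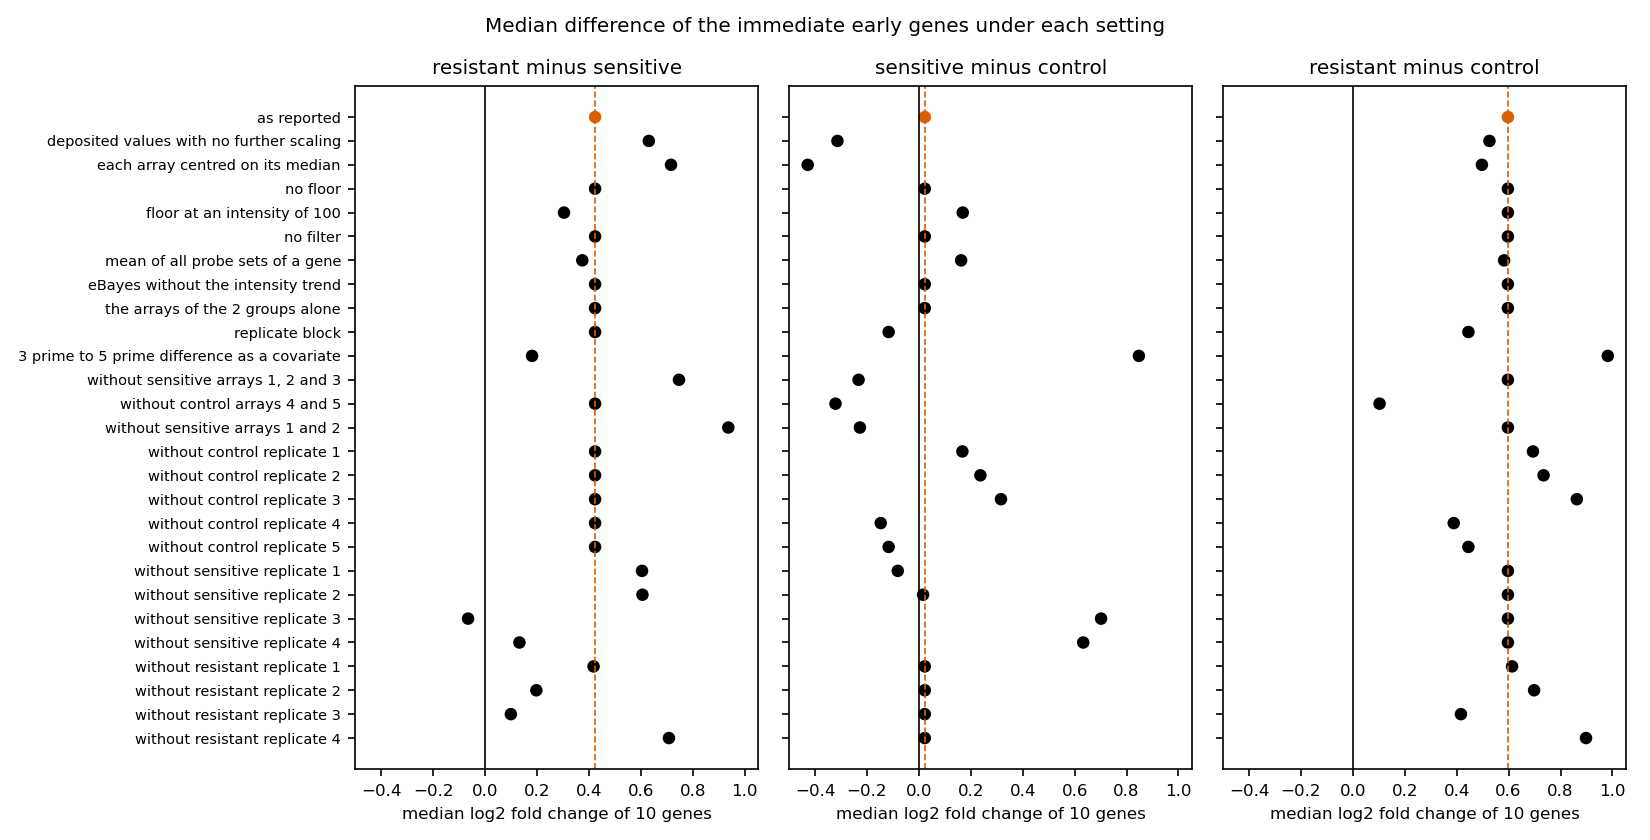
Median log2 fold change of the 10 genes (horizontal axis) under each setting (rows) in each comparison, with the value as reported in orange. The median between resistant and control arrays is lowest without control arrays 4 and 5, at 0.10, and that between resistant and sensitive arrays falls below 0 without sensitive array 3.

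Other genes of the same response were read from lists, and 0 genes of any list were called in any comparison. The list of other AP-1 and bZIP factors had 9 tested genes, with a median of 0.15 between resistant and control arrays and 0.12 between resistant and sensitive arrays, the second of which was -0.08 without sensitive array 3. Of that list Maff, a small MAF protein, averaged 8.85 ± 0.77 on resistant arrays and 7.49 ± 1.53 on sensitive arrays (unadjusted p of 0.0416 and adjusted p of 0.703 by limma), a difference of 1.36 that was 0.61 without sensitive array 3. Batf, a bZIP factor of immune cells, averaged 4.75 ± 0.29 on resistant arrays and 5.44 ± 0.42 on control arrays, and 4.65 ± 0.45 on sensitive arrays.

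The other zinc finger and nuclear receptor factors had 11 tested genes, all of them above 0 between resistant and control arrays, with a median of 0.34. Without control arrays 4 and 5, where the level of this list was lowest, 5 of 11 were above 0 and the median was -0.10. Between resistant and sensitive arrays 5 of 11 were above 0, with a median of -0.40, which was 0.67 without sensitive arrays 1 and 2 and 0.04 without sensitive array 3. Between sensitive and control arrays 8 of 11 were above 0, with a median of 0.59. There 3 had an unadjusted p under 0.05 by limma, against 1828 of all 15370 genes. The last median was 0.05 without control arrays 4 and 5 and -0.23 without sensitive arrays 1 and 2. Nr4a1, an early induced orphan receptor, averaged 9.53 ± 0.56 on resistant arrays, 10.17 ± 0.96 on sensitive arrays and 8.50 ± 1.09 on control arrays, and the difference of resistant from control arrays was 1.03, or 0.32 without control arrays 4 and 5. Myc, the growth-promoting factor, had 6.70 to 7.20 on resistant arrays, 5.57 to 8.80 on sensitive arrays and 5.63 to 6.49 on control arrays, so that resistant and control arrays did not overlap. For Myc the adjusted p by limma was 1.00 between resistant and control arrays and 0.266 between sensitive and control arrays.

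Of the upstream factors, Srf had 6.33 to 6.66 on sensitive arrays and 5.64 to 6.22 on control arrays, with no overlap and an adjusted p of 0.462 by limma. Elk3, an ETS partner of SRF also known from endothelium and macrophages, averaged 6.58 ± 0.49 on resistant arrays, 4.80 ± 1.75 on sensitive arrays and 6.70 ± 0.64 on control arrays. Its difference of resistant from sensitive arrays was 1.78, or 0.49 without sensitive arrays 1 and 2. The median of the 8 upstream factors was -0.07 between resistant and control arrays, -0.06 between resistant and sensitive arrays and -0.12 between sensitive and control arrays. It changed sign without control arrays 4 and 5 (0.16 between resistant and control arrays and 0.15 between sensitive and control arrays) and without sensitive array 3 (0.35 between resistant and sensitive arrays).

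Feedback inhibitors, which end the response by removing phosphates, mRNAs or proteins, held the gene with the smallest p of these lists in both comparisons with control arrays. Dusp5, a nuclear phosphatase of ERK, had 6.76 to 7.84 on resistant arrays, 7.30 to 7.76 on sensitive arrays and 5.95 to 6.69 on control arrays. Both B20 groups lay above every control array, by 1.19 (SE 0.28) for resistant and 1.22 (SE 0.28) for sensitive arrays, with unadjusted p of 0.000844 and 0.000687 and adjusted p of 1.00 and 0.189 by limma. Both differences share the control arrays, and without control arrays 4 and 5 they were 1.08 and 1.11. Ppp1r15a, the stress-induced phosphatase subunit also called GADD34, averaged 8.71 ± 0.73 on resistant arrays and 7.51 ± 0.71 on control arrays, a difference of 1.21 that was 0.80 without control arrays 4 and 5. In the list of 18, the median was 0.35 between resistant and control arrays, with 14 above 0, and 0.02 between resistant and sensitive arrays, with 9 above 0. Between sensitive and control arrays it was 0.11, with 11 above 0. There 7 of 18 had an unadjusted p under 0.05 by limma in either direction, against 1828 of all 15370 genes. The comparisons of resistant with control and with sensitive arrays had 3 and 1 such genes.

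Other early induced products had 11 tested genes, 10 of them above 0 between resistant and sensitive arrays, with a median of 0.41. Without sensitive array 3, where the level of this list was 6.04 against 8.36 to 8.72 on the other sensitive arrays, 6 of 11 were above 0 and the median was 0.03. The medians were -0.39 between sensitive and control arrays, with 3 of 11 above 0, and 0.24 between resistant and control arrays, with 7 of 11 above 0. Ptgs2, which makes prostaglandins, averaged 10.90 ± 0.33 on resistant arrays and 9.70 ± 1.11 on sensitive arrays (adjusted p of 0.758 by limma), a difference of 1.21 that was 0.78 without sensitive array 3. The 13 heat shock genes, also known to respond to handling of tissue, had medians of 0.18 between resistant and control arrays, 0.04 between resistant and sensitive arrays and 0.15 between sensitive and control arrays. The last was 0.03 without control arrays 4 and 5 and -0.28 without sensitive arrays 1 and 2, and that between resistant and sensitive arrays was -0.13 without sensitive array 3. Their highest difference between resistant and control arrays was 0.67, below those of Egr1 and Fos. Hspa8, a chaperone present in every cell, averaged 11.36 ± 0.41 on resistant arrays and 10.72 ± 0.39 on sensitive arrays (unadjusted p of 0.0384 and adjusted p of 0.697 by limma).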

How the data were processed

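RNA of CD31-sorted cells was profiled on 13 Affymetrix mouse arrays of 1 color (4 resistant, 4 sensitive and 5 control). Per the labels, cRNA from 700 ng of RNA was processed with MAS5, with no version given, while the methods name Illumina bead chips and BRB-ArrayTools. The values deposited by the authors, for 45101 Affymetrix probe sets, were read as log2 intensities from their range (0.461 to 13.0). The normalization and the log base are not stated there, and folds assume a base of 2.

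Arrays were quantile normalized, and values under the 30th percentile (2.01) were set to it, which understates changes of dim genes. Of the probe sets, 34958 had 1 symbol, 932 had several and 9211 were unnamed. The probe set with the highest mean stood for its gene, and the 15370 genes above the floor on at least 4 arrays were tested. No level was set against that of another probe set. Differences between groups were fitted in R 4.3.3 by limma 3.58.1 (lmFit, eBayes with an intensity trend, 3 groups in 1 fit, 10 residual degrees of freedom), with Benjamini-Hochberg adjustment over genes and calls at an adjusted p under 0.05. The 30 exact permutation tests of the members were two-sided and not adjusted. The fit was tested on simulated data in which each gene varied independently of the others. The members here moved together from array to array, so that test does not cover this feature of the data. The number of arrays limits the precision.

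The members and lists were chosen with earlier results of these data known. All members were named, with up to 3 genes of the smallest p of each pathway list and the 5 genes most like the members' mean standardized value. Hsp90ab1 and Hsf1, listed with the heat shock genes, were not analysed here. Replicate arrays correlated at 0.896 to 0.955 (resistant), 0.663 to 0.919 (sensitive) and 0.905 to 0.984 (control). Alternatives covered the scaling, the floor, the filter, the choice of probe set, the intensity trend, RNA quality, the methods' t-test (without its random variance model), the replicate block and left-out arrays.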

Additional observations from a re-analysis of the deposited data

Results flagged for a closer look

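The gap of the highest or lowest array to its nearest neighbor, divided by the range of the group, was above Dixon's critical value in 2 of 30 combinations of member and group, where chance gives about 1 in 20. Both ratios are of quantile normalized values. Egr1 on sensitive array 4 was 9.56, against 11.72 to 12.12 on the other sensitive arrays (ratio 0.844). In the deposited values that array had 9.695, against a wider 11.38 to 12.09 on the others. That array also had the widest 3′ to 5′ gap, 5.95, and a macrophage median of 9.84, against 3.82 to 4.60 on sensitive arrays 1 to 3, and the part of either in the Egr1 value was not tested. Ier3 on resistant array 1 was 10.24, against 10.39 to 10.40 on the other resistant arrays (ratio 0.95), in a group whose SD was 0.08. In the deposited values resistant array 1 had 10.43, within the 10.39 to 10.55 of the other resistant arrays, so it did not stand apart there.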

How the results depend on the processing

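Of 780 recomputed member values, 705 kept their sign, 75 changed it and 0 passed the threshold. Some of the 705 could not change, because their setting leaves the difference of means as it was. Examples are leaving out arrays of the group outside the comparison and dropping the intensity trend. The count of 705 therefore overstates how steady the signs were. For resistant minus sensitive, Jund and Ier2 became 0.23 and 0.31 with the deposited scaling and 0.31 and 0.40 with arrays centred on their medians. Without sensitive arrays 1, 2 and 3, Jund was 1.26, Ier2 0.72 and Ier3 -0.72, and without sensitive arrays 1 and 2, an alternative chosen after seeing the data, Jund was 0.85 and Ier2 0.35. With the 3′ to 5′ gap as a covariate, Fos was -0.030 and Egr1 -0.20. For sensitive minus control, Jun was -0.23 (deposited scaling), -0.35 (median centring), -2.31 (without sensitive arrays 1, 2 and 3), -1.88 (without sensitive arrays 1 and 2) and -0.51 (without control arrays 4 and 5). At a floor of 100, Fosb was 0.18 and Junb 0.00103. With the covariate, Fosb was 0.16, Junb 0.36 and Atf3 0.59. Without sensitive arrays 1, 2 and 3, Jund was -0.62, Egr1 -0.57, Ier2 -0.051 and Ier3 0.68, and without sensitive arrays 1 and 2, Jund was -0.21 and Egr2 0.20. For resistant minus control, Fosb was -0.45 and Jun -0.15 without control arrays 4 and 5. Without sensitive arrays 1, 2 and 3, 1 sensitive array remains, with the widest 3′ to 5′ gap, and the fit assumes that it varies like the other groups. Values of lists without arrays that stood apart were also chosen after seeing the data. The causes were not tested.

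The count of all genes called was 0 in each comparison as reported. For resistant minus sensitive it was 6 at a floor of 100, 2 with the arrays of these groups alone, 132 with the covariate, 7 without sensitive arrays 1, 2 and 3 and 16 without sensitive arrays 1 and 2. For sensitive minus control the counts were 12 (floor of 100), 424 (covariate), 5 (without sensitive arrays 1, 2 and 3) and 19 (without sensitive arrays 1 and 2), and for resistant minus control 1 (floor of 100). Leaving out single arrays gave 0 to 428 genes for resistant minus sensitive and 0 to 696 for sensitive minus control, both highest without sensitive array 4.

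Leaving out 1 array at a time also changed signs. For resistant minus sensitive the ranges were -0.48 to 0.44 (Fos), -0.46 to 1.19 (Fosb), -0.42 to 1.24 (Jun), -0.012 to 0.93 (Junb), -0.48 to 0.28 (Jund), -0.55 to 0.30 (Egr1), -0.31 to 0.20 (Ier2) and -0.067 to 1.19 (Ier3). For sensitive minus control they were -0.67 to 0.97 (Fosb), -0.81 to 0.85 (Jun), -0.48 to 0.25 (Junb), -0.23 to 0.32 (Egr2), -0.84 to 0.67 (Atf3) and -1.24 to 0.023 (Ier3). For resistant minus control they were -0.024 to 0.94 (Jun), -0.069 to 0.88 (Junb) and -0.16 to 0.021 (Ier3).

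Arrays of the same replicate number correlated at -0.431 to 0.53 in their deviations from group means. The closest array was sometimes, but not always, that of the same number. These correlations neither show nor exclude that the numbers pair samples, and the fit as reported did not pair them. A fit with the replicate block called 0 genes in each comparison, and the sign of Jun for sensitive minus control turned (-0.12).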
